A study of Homo sapiens with 6 samples.

Results

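The array rows described here carry the names of ribosomal protein pseudogenes, such as RPL23AP47 or RPS15AP36, in H295R, an established steroid-producing cell line derived from a human adrenocortical carcinoma. Each name joins a parent gene (RPL23A, RPS15A) to a P and a number. A row was taken when the platform's annotation gave it exactly 1 symbol of this form, and rows with identical values on all 6 arrays were counted once. This gave 890 rows, 888 of them distinct, with 875 symbols. RPL23AP60 and RPL23AP84 shared 1 row and are counted together, so 874 members entered, of 33544 genes tested. RefSeq lists 849 of the symbols as pseudogenes and 25 as transcribed pseudogenes. The remaining symbol, RPS19BP1, is a protein-coding gene for a protein that binds ribosomal protein S19. It is no pseudogene, and its name only happens to have this form. Its values were 136, 134 and 87.9 with DMSO and 152, 297 and 187 with CX-4945. The groups did not overlap, but it did not pass the test (log2 difference 0.80, SE 0.27, adjusted p = 0.0544).

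The members were selected by name, and the only measured values the choice used were those that showed which rows were identical. The family was picked with results of the same comparison known, so its counts are given as a description, and each member's test comes from a fit across all genes. The cells received 5 µM CX-4945 (silmitasertib, an inhibitor of the protein kinase CK2) or its solvent DMSO for 24 h, with 3 arrays in each group. No genetic change separated the groups, and all 6 arrays came from the same cell line. No source used here says whether the replicates were separate cultures, so p-values measure the spread between these arrays, which may be technical.

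Ribosomal proteins are named for the large (RPL) or small (RPS) subunit of the ribosome, and every growing cell makes their mRNAs in large amounts. Processed pseudogenes arise when such an mRNA is copied into DNA and inserted elsewhere in the genome. The copies have no introns, usually bring no promoter of their own, often lie inside other genes and can stay very close to the parent in sequence. A probe for a pseudogene can therefore also catch the parent's mRNA or that of another copy, and the signal of a row cannot be assigned to 1 locus. How far this holds for each row was not tested.

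Intensities are given on the authors' linear scale, and differences are log2 CX-4945 minus log2 DMSO with the standard error (SE) of the limma fit. A member was called higher or lower at a Benjamini-Hochberg adjusted p below 0.05 over all genes, and the words rose and fell are kept for such calls. The median intensity over all rows of an array lay between 40.7 and 43.1 with DMSO and between 45.8 and 46.5 with CX-4945, while the median difference over the tested genes was only 0.02. As a yardstick for background, the 95th percentile of 400 olfactory receptor genes lay at 6.38 on the log2 scale. Of 8 markers of adrenocortical cells, 7 were above it with DMSO; MC2R, the ACTH receptor, was not. Of 11 markers of other cell types, 3 were above it (CD3E, COL1A1 and VWF). With CX-4945, 6 of the 8 adrenocortical markers fell, CYP11A1 by 6.33 and CYP17A1 by 4.69, and of the 11 others only CD14, a monocyte gene, rose, by 1.68 to above background. The part of this change in the results below was not tested. Fewer cells and less RNA per cell cannot be told apart in such bulk samples.

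Of the 874 members, 110 (12.6%) were called higher and 11 (1.26%) lower. Over all genes, 10.3% were called higher and 12.5% lower. The share of members called higher was thus close to the background, and the share called lower was well under it. The median log2 difference of the members was 0.18, with quartiles of -0.02 and 0.42, against a median of 0.02 over all genes. A positive difference was seen in 637 members (72.9%), against 52.4% of all genes. The groups did not overlap in 250 members (28.6%), below the 36% of all genes. Of the 121 called members, 37 were at least 2-fold higher and 2 at least 2-fold lower. In 3 called members the DMSO and CX-4945 values overlapped.

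The balance depended on how the arrays were scaled. After quantile normalization, 78 members were called higher and 21 lower, against 7.8% and 15.7% of all genes. With equal array medians the members' counts were 76 and 23, against 7.54% and 15.8% of all genes. The share of higher calls among the members' calls went from 90.9% to 78.8% and 76.8%. The median of all genes moved to -0.09 and -0.11, and that of the members to 0.04 and 0.05. Relative to the median of all genes, the members' median was 0.16 higher on the deposited scale, 0.14 higher after quantile normalization and 0.16 higher with equal medians. Relative to each member's DMSO mean, the median over members was 0.13, -0.04 and -0.08 in DMSO replicates 1 to 3 and 0.24, 0.14 and 0.16 in CX-4945 replicates 1 to 3. DMSO replicate 1 thus lay almost as high as CX-4945 replicate 2. Without DMSO replicate 1 the median difference was 0.24, with 107 members called higher and 5 lower. Without DMSO replicate 2 the calls dropped to 64 higher and 6 lower, without DMSO replicate 3 to 65 and 8, and without CX-4945 replicate 3 to 73 and 8. Without CX-4945 replicate 2 they came to 138 higher and 14 lower.

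The members were next divided by brightness. In 468 members at least 1 group mean lay above background, and these held 99 of the 121 calls. Of the 422 members with an overall mean below background, 22 were called higher and 6 lower, with a median difference of 0.10. Between background and a log2 level of 8, 25 of 207 were called higher and 3 lower. From 8 to 10, 24 of 125 were called higher and 0 lower by limma. From 10 to 12, 23 of 62 were called higher and 1 lower, with a median of 0.44, against 22.4% higher and 27.3% lower among all genes of that range. At 12 and above, 16 of 58 were called higher and 1 lower, with a median of 0.26. From dim to bright, the members' shares called higher were 5.21%, 12.1%, 19.2%, 37.1% and 27.6%. Those of all genes in the same ranges were 3.93%, 9.48%, 15.9%, 22.4% and 24.1%, so they climbed with the level too. In every one of these ranges the lower calls were a smaller share of the members than of all genes.

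**Figure D1:**
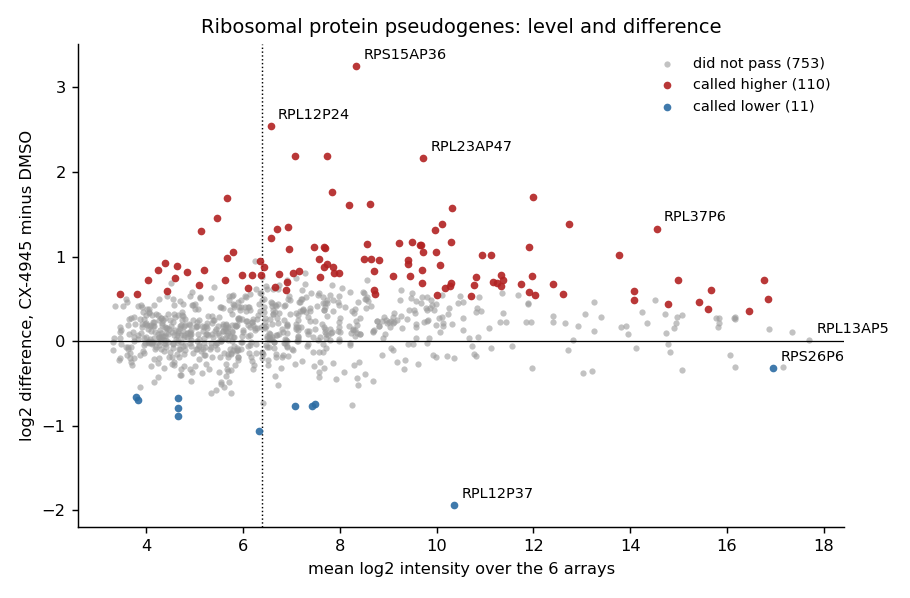
Mean log2 intensity over the 6 arrays (x) and log2 difference, CX-4945 minus DMSO (y), with 1 point for each of the 874 members; red points were called higher (110), blue points lower (11), and the dotted line marks the background at 6.38. Red points are found at every level, while 6 of the 11 blue points lie below background.

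The member with the largest rise was RPS15AP36, a copy of RPS15A, whose protein belongs to the small subunit. Its intensity was 105, 112 and 97.9 with DMSO and 634, 1397 and 1132 with CX-4945. All 3 treated arrays were far above all DMSO arrays, a 9.54-fold difference (log2 3.25, SE 0.27, adjusted p = 2.55e-06 by limma). The parent RPS15A did not pass (-0.03, SE 0.13, adjusted p = 0.925). RefSeq places RPS15AP36 inside the uncharacterised lncRNA gene LOC105372479, whose level was not analysed here. The nearest protein-coding gene with a row, ZNF274, a zinc finger protein gene, rose by 0.75 (SE 0.21, adjusted p = 0.023); neighbours were looked up after the values were seen. Beside the 12 largest rises, 4 such neighbours rose, 2 fell and 6 did not pass. The falls were those of CIMIP2B beside RPL36AP33 (-1.83) and SPCS2 beside RPL31P46 (-0.77). A gene that surrounds a copy was not taken as its neighbour. RUSC2 around RPL36AP33 rose by 2.03, and XRRA1 around RPL31P46 did not pass (0.44). Beside the 11 members called lower, 1 neighbour rose, 1 fell and 9 did not pass. Over all protein-coding genes, 11.9% were called higher and 20.3% lower.

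RPL23AP47 had the smallest SE of the 12 largest rises. Its DMSO values were 363, 434 and 402 and its CX-4945 values 1663, 1845 and 1879, a 4.50-fold difference (2.17, SE 0.17, adjusted p = 2.18e-06). RPL21P44, a transcribed pseudogene, was at 59.5, 69.7 and 59.2 with DMSO and at 287, 208 and 392 with CX-4945. It went from below to above background (4.57-fold, log2 2.19, SE 0.24), while RPL21 did not pass (-0.11, SE 0.12). RPL31P46 was at 112, 121 and 74.6 with DMSO and at 581, 323 and 507 with CX-4945 (4.55-fold). RPL31P61 was at 123, 112 and 141 with DMSO and at 400, 386 and 489 with CX-4945 (3.39-fold). Both copies rose more than RPL31 itself (0.68, SE 0.12), though the difference from the parent was not tested.

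Among brighter rows, RPL36AP33 had 1930, 2028 and 2926 with DMSO and 8054, 5674 and 8745 with CX-4945. This 3.27-fold rise stood beside a parent, RPL36A, that did not pass (0.04, SE 0.13). RPL23AP45 was at 626, 876 and 728 with DMSO and at 1575, 1773 and 3770 with CX-4945 (2.98-fold); replicate 3 was far above the other treated arrays. RPS20P20 was dim throughout, at 30.1, 28.7 and 21.7 against 83.7, 59.6 and 77.5 (2.74-fold, adjusted p = 2.84e-04), and neither group mean reached background.

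In 9 of the 12 members with the largest rises, CX-4945 replicate 2 was the lowest treated array, and in 4 it stood far from the other treated arrays. RPL12P24 had 40.1, 35.9 and 42.1 with DMSO and 340, 110 and 321 with CX-4945 (5.83-fold). RPS23P5 had 245, 235 and 196 with DMSO and 976, 322 and 1050 with CX-4945 (3.08-fold). Even so, replicate 2 was above every DMSO array in both. RPL21P54, at 30.0, 26.3 and 28.4 against 111, 58.7 and 116 (3.23-fold), and RPL23AP20, at 152, 171 and 179 against 593, 309 and 714 (3.04-fold), also had replicate 2 as the lowest treated array. Among all 110 members called higher, replicate 2 was the lowest treated array in 47 and the highest in 32. RPL37P6 showed the reverse. It was at 19601, 14291 and 12245 with DMSO and at 26989, 86286 and 23499 with CX-4945, so replicate 2 stood far above every other array. Its rise of 1.33 (adjusted p = 0.023) was 0.74 without that array and no longer passed without DMSO replicate 2 or DMSO replicate 3.

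**Figure D2:**
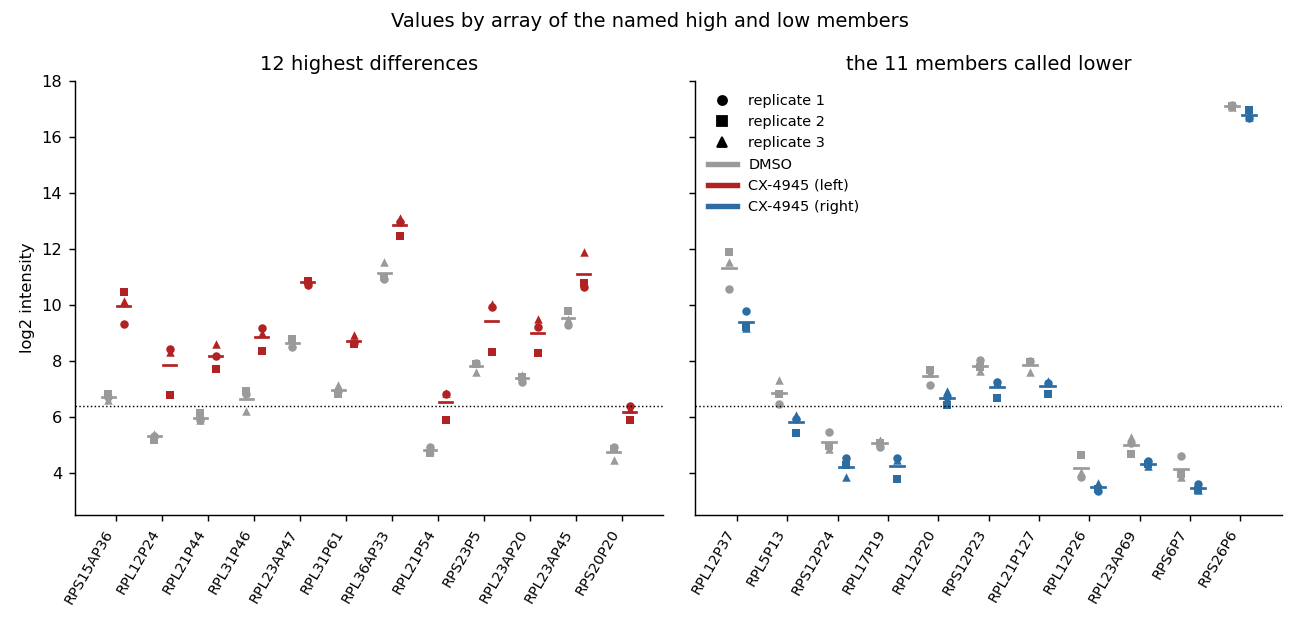
Log2 intensity on each array (y) of the 12 members with the largest rises (left) and of the 11 members called lower (right); grey is DMSO, red or blue is CX-4945, symbols mark the replicates, short lines are group means and the dotted line is the background. The groups are separate in every member shown, and CX-4945 replicate 2 (square) is far below the other treated arrays in RPL12P24, RPS23P5, RPL21P54 and RPL23AP20.

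The 11 falls were smaller and mostly in dim rows. RPL12P37 stood apart, at 1517, 3792 and 2954 with DMSO and 878, 594 and 583 with CX-4945. It fell by 1.93 on the log2 scale (SE 0.30, adjusted p = 4.19e-04), while its parent RPL12 rose by 0.71. RPL5P13 was at 88.7, 112 and 159 with DMSO and 61.2, 42.5 and 66.4 with CX-4945, a fall from above to below background (-1.06, SE 0.26). In both copies all 3 DMSO values lay above all 3 treated values.

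A pair of copies of RPS12 was among the falls. RPS12P24 fell by 0.88 (SE 0.23) and RPS12P23 by 0.76 (SE 0.22), and RPS12 itself fell by 0.59 (SE 0.13, adjusted p = 0.00547). RPL12P20 (-0.77), RPL12P26 (-0.70), RPL17P19 (-0.79), RPL21P127 (-0.75), RPL23AP69 (-0.67) and RPS6P7 (-0.67) also fell, with adjusted p between 0.0177 and 0.0299. Below background in both groups were RPS12P24, RPL12P26, RPL17P19, RPL23AP69 and RPS6P7. RPS26P6 is different, since it is one of the brightest rows, at 144128, 142007 and 138755 with DMSO and 105396, 127595 and 108685 with CX-4945. Its fall of 0.32 (SE 0.11) barely passed (adjusted p = 0.0465) and was lost in 9 of the 18 alternative settings.

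Of the 11 falls, only that of RPL12P37 passed with any single array left out. Without DMSO replicate 1 the calls of RPS12P23, RPS12P24, RPL21P127, RPL23AP69, RPS6P7 and RPS26P6 were lost. Without DMSO replicate 2 those of RPL12P20, RPL12P26, RPL17P19, RPL21P127, RPS12P23 and RPS26P6 were lost, and without DMSO replicate 3 those of RPL5P13, RPL12P20, RPL17P19, RPL23AP69 and RPS26P6. Without CX-4945 replicate 1 those of RPL12P20, RPL12P26 and RPS26P6 were lost, without CX-4945 replicate 2 those of RPL12P20, RPL17P19, RPL21P127, RPS6P7 and RPS12P23, and without CX-4945 replicate 3 those of RPS12P24, RPL23AP69, RPS6P7 and RPS26P6.

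Among the other 5 of the 6 brightest members, 1 passed the test. RPL13AP5, a transcribed pseudogene of RPL13A, was at 216518, 205326 and 213193 with DMSO and 209301, 235464 and 196050 with CX-4945, and the groups overlapped (0.01, SE 0.10). RPS10P17 overlapped too (0.11, SE 0.12). The sign of both turned when the arrays were set to equal medians, to -0.12 and -0.02. RPL15P3 did not pass (0.14, SE 0.10), nor did RPS26P8 (-0.30, SE 0.10, adjusted p = 0.0588). RPS23P8 rose by 0.50 (SE 0.11, adjusted p = 0.00676), with 106516, 104034 and 86202 against 151635, 132605 and 133851.

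The members came from 67 parent genes, and 36 parents had at least 8 members, together 767. The median of the family was above 0 in 31 of these 36 on the deposited scale, in 21 after quantile normalization and in 21 with equal array medians. The signs that turned under one or both were those of RPL7A, RPL9, RPL17, RPL30, RPL34, RPL36A, RPS6, RPS10, RPS24, RPS27 and RPS29. Of the parents, 48 had a row of their own. Another 16 were named only in rows with several symbols, among them RPL23A, RPL17, RPS2, RPS20, RPL3, RPL39, RPL13A and RPL32, and such rows were not used.

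The RPL12 family had the most calls, 19 higher and 3 lower of 48, with a median of 0.45. RPL12 protein sits at the base of the stalk of the large subunit that recruits translation factors. Its own row was at 110893, 112322 and 115182 with DMSO and at 172454, 209530 and 173148 with CX-4945 (0.71, SE 0.11, adjusted p = 3.27e-04). Bright copies such as RPL12P4 (0.73) and RPL12P12 (0.72) were close to that value. The family nevertheless spanned everything from RPL12P37 at -1.93 to RPL12P24 at 2.54.

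RPL23A, whose protein lies near the exit of the nascent peptide tunnel, had the most members. Of its 89 copies 18 were called higher and 1 lower, with a median of 0.25, and the range ran from RPL23AP69 to RPL23AP47. The shared row of RPL23AP60 and RPL23AP84 rose by 1.14 (SE 0.19). For the brightest called copy, RPL23AP74, the rise was only 0.38, while copies at middle levels such as RPL23AP25 (1.38) and RPL23AP88 (1.31) rose more. RPL7, another protein of the large subunit, had 58 copies with 9 called higher and 0 lower, and a median of 0.24 beside a parent that rose by 0.38 (SE 0.12). Its highest member, RPL7P47, had 4759, 3952 and 3966 with DMSO and 8647, 14422 and 10790 with CX-4945 (1.39, SE 0.19), and its lowest, RPL7P42, did not pass (-0.48).

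RPL21 was the third largest family, with 57 copies, and showed little. Only 2 copies were called higher and 1 lower, and the median of -0.03 lay beside a parent at -0.11 (SE 0.12). RPL5, part of the 5S particle that binds MDM2 when ribosome assembly fails, had 35 copies with a median of 0.28. None was called higher by limma and only RPL5P13 was called lower; the highest, RPL5P30, did not pass (0.57, adjusted p = 0.0881). RPS3A, with 35 copies, had 7 called higher and a median of 0.34. RPS3AP22 was highest at 1.10 (SE 0.25), and RPS3AP4 lowest at -0.48 without passing. The single-symbol rows of RPL5 (0.97, SE 0.17) and RPS3A (0.67, SE 0.23) had mean log2 levels of 9.55 and 8.98, far below those of most parents, so they may not stand for the bulk of these mRNAs.

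The RPS23 family had the highest median among families of at least 8 members, 0.46, with 5 of 10 copies called higher. RPS23 protein lines the decoding centre, and its own row rose by 0.46 (SE 0.11). The lowest copy, RPS23P4, overlapped between groups (-0.06). RPS4X, a small subunit protein gene, had 21 copies with 3 called higher and a median of 0.41, beside a parent that rose by 0.66 (SE 0.11). Its copies reached from RPS4XP5 (-0.24, not passed) to RPS4XP9 (1.05). RPL35A (15 copies, 3 called higher, median 0.41) again stood beside a parent that rose (0.49, SE 0.12), and its copies reached from RPL35AP22 (-0.40, not passed) to RPL35AP32 (0.79). Of the 30 copies of RPL31, 5 were called higher, and RPL31P47 was lowest at -0.42 without passing.

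Families with a parent that fell showed the opposite sign. RPS26, whose protein contacts mRNA near the exit site, was at 220991, 208578 and 215702 with DMSO and at 160363, 190054 and 151442 with CX-4945 (-0.37, SE 0.11, adjusted p = 0.0232). The median of its 23 copies was -0.28, and 20 of the 23 were not above 0, but only RPS26P6 passed. The extremes, RPS26P34 (-0.48) and RPS26P21 (0.55), did not. The 12 copies of RPS12 had a median of -0.27, with 2 called lower and 0 higher; the highest, RPS12P27, did not pass (0.37). Both medians were also below 0 under the other scalings.

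The median of the RPL26 copies differed in sign from the parent. The parent's own row rose by 0.53 (SE 0.11, adjusted p = 0.0031), but the median of its 10 copies was -0.10. The brightest copy by far, RPL26P19 at a mean log2 level of 15.7, rose by 0.60 (SE 0.14), close to the parent. The other 9 copies had levels of 3.43 to 8.37 and did not pass, among them the highest, RPL26P31 (0.95, adjusted p = 0.0549), and the lowest, RPL26P30 (-0.51). RPS15A had 20 copies with a median of 0.20 and only RPS15AP36 called higher, and RPS15AP40 was lowest (-0.08). RPL36A had 18 copies, of which 2 were called higher, with RPL36AP55 lowest (-0.41, not passed). RPL37 had 10 copies and a median of -0.05, with RPL37P6 as the sole call and RPL37P4 lowest (-0.61, not passed).

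Of the remaining large families, 4 had 2 or 3 copies called higher. RPL13A had 9 copies, 2 of them called higher. All 9 differences were above 0 on the deposited scale, but that of RPL13AP5 turned below 0 under the other scalings. RPL13AP20 rose most, from 3048, 2427 and 2422 to 4545, 7822 and 5170 (1.12, SE 0.21). RPL3 had 13 copies and 2 called higher; RPL3P4 went from 9319, 9454 and 10486 to 15835, 25493 and 19013 (2.03-fold), and RPL3P11 did not pass (-0.32). RPS2 had 19 copies and 3 called higher, with a median of 0.29, from RPS2P25 (-0.15, not passed) to RPS2P1 (0.66), whose call was lost without DMSO replicate 2. RPS20 had 16 copies and 3 called higher, from RPS20P22 (-0.52, not passed) to RPS20P20.

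Exactly 1 copy rose in each of several families, and it was the highest copy in most of them. These were RPL17P51 (0.92) of 24 RPL17 copies, RPL32P31 (0.91) of 9, RPL29P7 (0.81) of 15, RPL7AP45 (0.75) of 31, RPL30P3 (0.61) of 15 and RPS27P20 (0.56) of 14. RPL17P51, RPL7AP45 and RPS27P20 were below background in both groups. The call of RPL30P3 was lost whichever array was left out, and that of RPS27P20 whichever array except CX-4945 replicate 1. The call of RPL17P51 was lost without DMSO replicate 2 or CX-4945 replicate 3, and that of RPL7AP45 when CX-4945 replicate 1, DMSO replicate 2 or DMSO replicate 3 was missing. Those of RPL29P7, RPL32P31 and, in the RPL35A family, RPL35AP32 were lost without DMSO replicate 3. The lowest copies in these families, RPL32P28 (-0.07), RPL29P29 (-0.09), RPL7AP31 (-0.47), RPL30P13 (-0.61) and RPS27P27 (-0.76), did not pass, apart from RPL17P19 described above. In the RPL39 and RPL6 families the 1 called copy was not the highest, since RPL39P18 (0.73) and RPL6P25 (0.54) did not pass; RPL39P6 (-0.24) and RPL6P5 (-0.20) were lowest.

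No copy was called higher or lower by limma in the families of RPL9, RPL19, RPL34, RPS7, RPS10, RPS24 and RPS29, with 8 to 15 copies each. The highest copies there were RPS7P15 (0.52), RPL34P1 (0.54), RPL19P21 (0.46), RPL9P7 (0.44), RPS29P25 (0.41), RPS24P16 (0.35) and RPS10P2 (0.22). The lowest were RPS10P18 (-0.26), RPL34P33 (-0.22), RPS29P26 (-0.14), RPS24P18 (-0.14), RPL9P30 (-0.14), RPS7P2 (-0.09) and RPL19P20 (-0.03). RPS6 had 1 copy called lower, RPS6P7, and its highest, RPS6P23, did not pass (0.26).

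**Figure D3:**
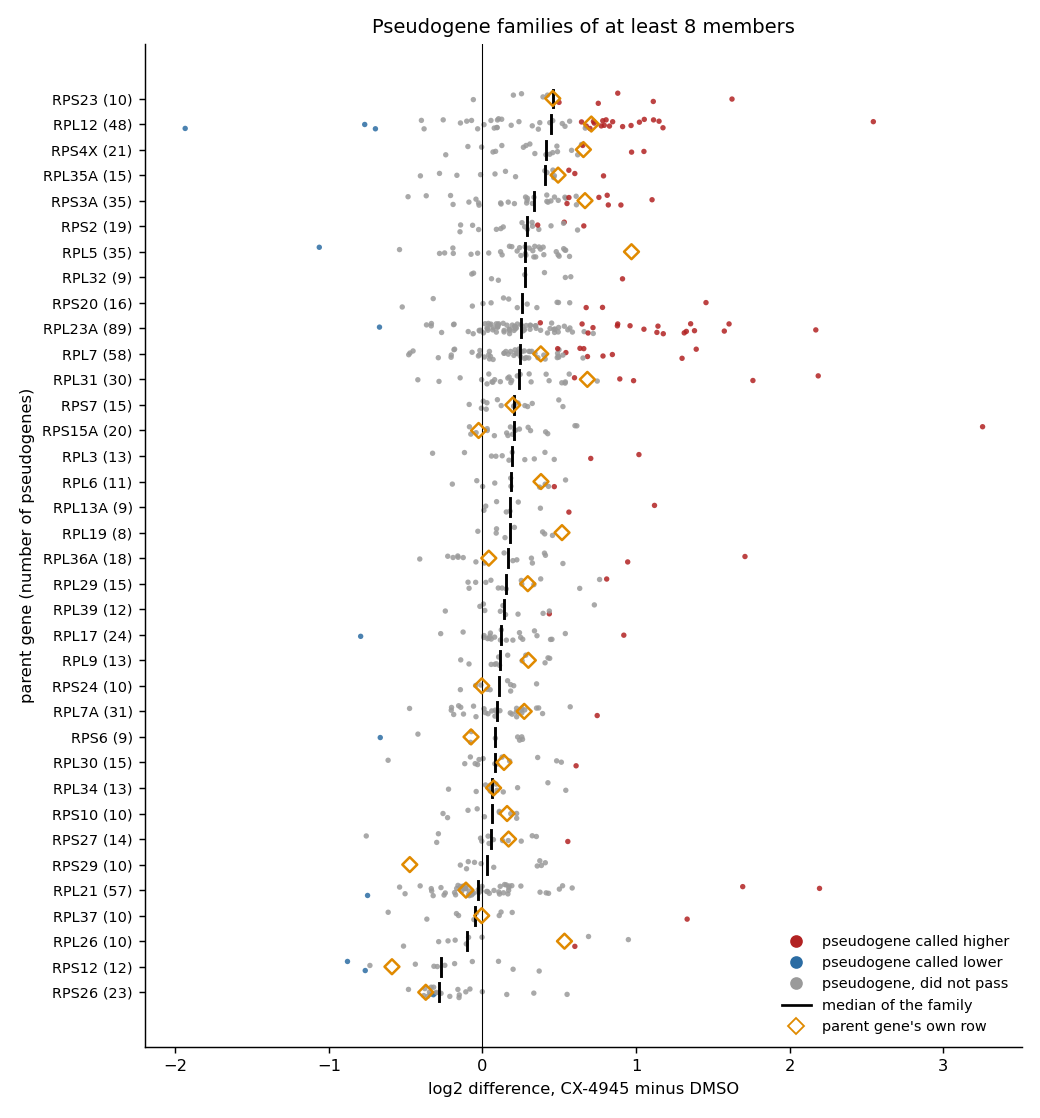
Log2 difference, CX-4945 minus DMSO (x), of each pseudogene in the 36 families of at least 8 members (y, with the number of copies); points are red if called higher, blue if called lower and grey otherwise, black bars are family medians and open diamonds the parent's own row where it was used. Medians run from -0.28 (RPS26) to 0.46 (RPS23), and RPL12 and RPL23A hold the most red points.

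Smaller families included some in which most copies passed. RPL24 and RPL10 each had 3 of 4 copies called higher, with medians of 0.59 and 0.70, and RPL24 itself rose by 0.60 (SE 0.12). RPS18 had 2 of 4 called higher (median 0.64) while its own row did not pass (0.25, SE 0.11). RPS14, whose loss on chromosome arm 5q causes an anaemia, had the highest difference of all parents. It was at 7758, 8264 and 9137 with DMSO and at 19137, 23527 and 22036 with CX-4945 (1.36, SE 0.14, adjusted p = 1.65e-05). Of its 4 copies, RPS14P8 (0.97) and RPS14P4 (0.83) rose and the median was 0.75, below the parent.

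Among the 48 parents with a row, 14 (29.2%) were called higher and 2 (4.17%) lower, with a median of 0.22. Over all genes, 10.3% were called higher and 12.5% lower. Most parent rows were bright, and of all genes at a log2 level of 12 and above, 24.1% were called higher and 26.7% lower. The parents' share of higher calls was thus near that of bright genes, and their share of lower calls was well under it. After RPS14 the highest parents were RPL5, RPL12 and RPL31. The lowest parents were RPS12, RPS29 (-0.47, SE 0.22, not passed, with a row below background), RPS26 and RPL11 (-0.17, SE 0.13, not passed). Over all 56 ribosomal protein genes with a row, 15 (26.8%) were called higher and 3 (5.36%) lower. The third lower call was RPS27L, a paralog of RPS27 with no member here (-1.17, SE 0.20).

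Family medians followed the parents' own differences. Over the 28 families of at least 8 members with a parent row, Pearson's r was 0.75 and Spearman's rho 0.73, and the sign was the same in 23. These are descriptions, since the points share the 6 arrays and since copies and parent can share probe sequence. Over the 25 families whose parent row had a log2 level above 12, r was 0.77 and rho 0.67. The 13 parents of that level that rose had 224 members, of which 51 were called higher and 3 lower (median 0.30). The 2 that fell had 35 members, of which 0 were called higher by limma and 3 lower (median -0.28). The 29 that did not pass had 297 members, of which 14 were called higher and 2 lower (median 0.10). A positive difference was seen in 178, 6 and 194 members of these 3 groups.

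**Figure D4:**
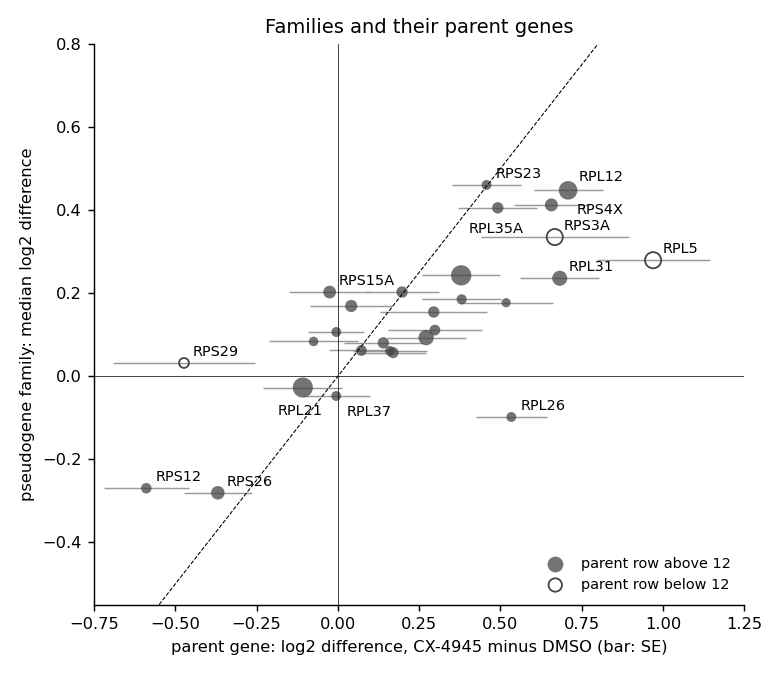
Log2 difference of the parent gene (x, bars are its SE) and median log2 difference of its pseudogenes (y) for the 28 families of at least 8 members with a parent row; point size grows with the number of copies, open points have a parent row below a log2 level of 12, and the dashed line marks equal values. RPS12 and RPS26 are low on both axes, RPL12 and RPS4X high on both, and RPL26 has a median of -0.10 beside a parent at 0.53.

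Bright rows were closer to the parent than dim ones. The median absolute gap between a member and its parent was taken over the 556 members whose parent row had a log2 level above 12. It was 0.27 for members below background, 0.19 up to a level of 8 and 0.20 from 8 to 10. From 10 to 12 it was 0.16, and at 12 and above 0.078. The part of shared probe sequence and of the scatter of dim rows in this pattern was not tested. Among bright rows RPL37P6 was an exception, with a mean log2 level of 14.5 and a rise of 1.33 beside a parent at -0.01 (SE 0.10).

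The members were also divided by their place in the annotation, and differences between these shares were not tested. Of 310 members inside a protein-coding gene, 33 (10.6%) were called higher and 3 lower (median 0.18). Of 98 inside a lncRNA gene only, 16 (16.3%) were called higher and 1 lower (median 0.14). Of 465 in neither, 60 (12.9%) were called higher and 7 lower (median 0.18). Of the 25 transcribed pseudogenes, 7 (28%) were called higher and 0 lower by limma (median 0.38). These 7 were RPL21P44, RPL13AP3, RPL13AP20 and 4 copies of RPL23A, and 1 of those 4, RPL23AP87, rose by 1.33 (SE 0.21). Of the 848 other pseudogenes among the members, 12.1% were called higher, and of all genes 10.3%. At least 1 group mean lay above background in 19 of the 25 and in 448 of the 848. The part of the level in these shares was not tested.

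For 282 of the members inside protein-coding genes, at least 1 surrounding gene had a row of its own. Where several had a row, the first in alphabetical order was used. RPL7AP34, counted under LGSN, also lies in PTP4A1, which rose by 2.04. RPL7AP15, counted under CHD1L, also lies in FMO5, which fell by 1.32. Over the 282 members the differences of pseudogene and surrounding gene were only weakly alike (Pearson's r 0.27, Spearman's rho 0.22), as a description over points that share the arrays. Among the 160 of them with a mean level above background, r was 0.25 and rho 0.15. Among the 34 of the 282 that were called, r was 0.57 and rho 0.40. These 34 were picked by their own differences, and such a choice can raise r by itself. Strand was not used here, so members on the same and on the opposite strand are pooled.

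All 3 falls inside a measured gene stood beside a fall of that gene. INPP4B, a phosphoinositide phosphatase gene around RPL5P13, fell by 2.22 (SE 0.21). ADGRL3, an adhesion receptor gene around RPL17P19, fell by 1.90 (SE 0.22). LIMCH1, a regulator of myosin around RPL12P20, fell by 1.55 (SE 0.18). By the surrounding gene used, 82 of the 282 members lay in a gene that fell, and 3 of those were called lower and 9 higher.

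Of the 31 rises inside a measured gene, 5 stood beside a rise of that gene, 9 beside a fall and 17 beside no call. By the surrounding gene used for each of the 282 members, 34 lay in a gene that rose, 82 in one that fell and 166 in one that did not pass. The rises were thus spread over these groups much as all 282 members were. The clearest joint rises were RPL31P61 in the zinc finger gene ZNF829 (2.16, SE 0.20) and RPL36AP33 in RUSC2, a gene for a vesicle transport protein (2.03, SE 0.21). RPL35AP32, below background in both groups, lies in MAP2K1, the gene of the kinase MEK1, which rose by 1.38 (SE 0.15). RPL31P60 in CEP89 and RPS20P15 in SLC4A7 completed the 5. The mean log2 levels of these copies were 4.64 and 6.19, under the background of 6.38. RPL12P24 in ZFPM2, a cofactor of GATA factors, RPL31P46 in XRRA1 and RPL21P54 in TTC23L also rose. Their surrounding genes did not pass (0.42 to 0.50), and the rows of ZFPM2 and TTC23L were below background in both groups, so these differences give no comparison.

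The 9 rises inside a gene that fell included RPL23AP17, at 1.35, in the polycomb gene SCMH1, which fell (-2.00, SE 0.18). RPL31P15 rose by 0.98 inside DNAJC10, the gene of a disulfide reductase of the endoplasmic reticulum, which fell by 1.16 (SE 0.21). RPL36AP15 rose by 0.95 inside the mismatch repair gene MSH6, which fell by 0.83 (SE 0.18). The DMSO and CX-4945 values of RPL31P15 overlapped, and both its group means were below background. These members were picked out after their values were seen.

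Of the highest and lowest members of the families, 21 lay in a measured gene. In 2 both rose, in 2 both fell, and in 2 the copy rose while the gene did not pass. In 8 neither passed, among them RPL5P30 in IFT46, RPS7P15 in STX18, RPS4XP5 in WDPCP and RPL7AP31 in AASDH. In the other 7 the copy did not pass although the gene did. APOO around RPL9P7 fell by 2.15, MTOR around RPL39P6 by 1.42, SSH2 around RPL9P30 by 0.95, CFAP47 around RPS15AP40 by 0.88 and FGFR1 around RPS20P22 by 0.81. ARHGAP31 around RPS26P21 rose by 1.74, and AAGAB around RPS24P16 rose by 0.78. The row of CFAP47 was below background in both groups and gives no comparison. The copies RPL9P30, RPS15AP40 and RPS26P21 were below background in both groups as well. The bright RPS10P17, which did not pass, lies in GAPVD1, which fell by 0.85.

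Inside a lncRNA gene with a row, 8 copies were called, all higher. The lncRNA gene rose in 3 cases and did not pass in 5. Over all genes, 10.3% were called higher and 12.5% lower. Of these 8 copies, RPL24P8 and RPL39P3 also lie in protein-coding genes, MAMDC2 and OOEP, and were counted there too. MSC-AS1 around RPS20P20 rose by 1.14 (SE 0.24, adjusted p = 0.00347), beside the rise of 1.45 in the copy. TMEM161B-DT around RPS3AP22 (0.18, SE 0.14) and LINC00970 around RPL29P7 (0.05, SE 0.20) did not pass.

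**Figure D5:**
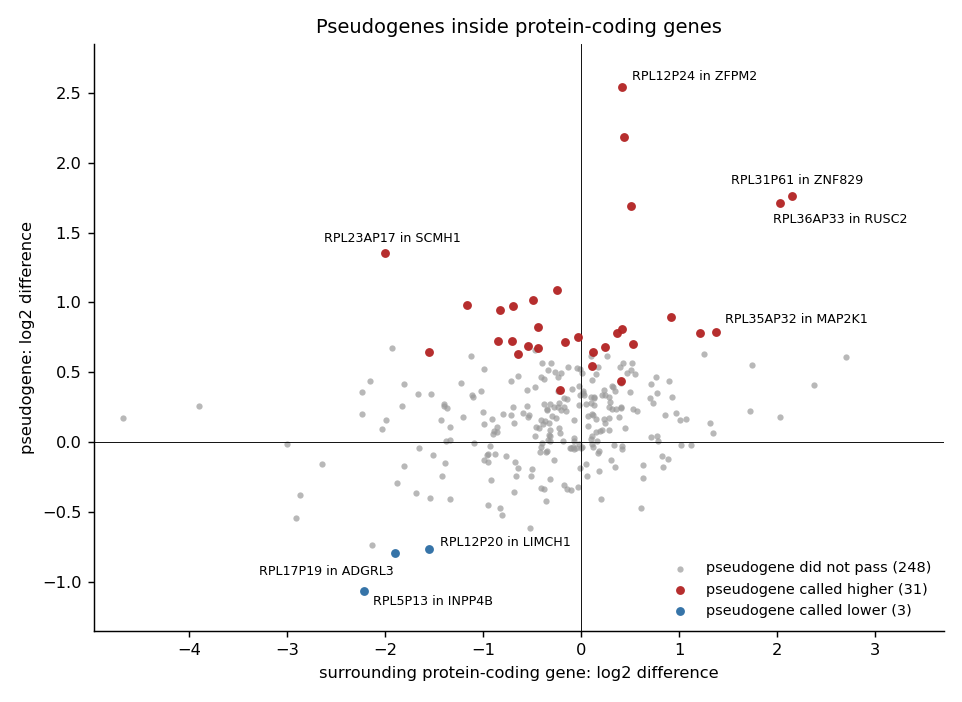
Log2 difference of the surrounding protein-coding gene (x) and of the pseudogene inside it (y) for 282 members; red pseudogenes were called higher (31), blue ones lower (3) and grey ones did not pass. The 3 blue points lie at the lower left, and red points lie on both sides of 0 on the x axis.

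Several array rows can stand for the same pseudogene, and 13 symbols had more than 1 distinct row. The brightest row was used. The sign differed between rows only for RPS23P5 and RPL23AP64. RPS23P5 had a difference of 1.62 in the row used and -0.10 in a dimmer row, the largest gap of the 13, so its rise rests on 1 of its 2 rows. The rows of RPL7P47 gave 1.39 and 0.34, those of RPL23AP45 1.57 and 1.20. No other pair of member rows was identical, and the closest pair, RPL7P29 and RPL12P30, differed by up to 0.091 on the log2 scale.

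The 9291 other pseudogenes with a row had a median difference of 0.10, with 814 called higher (8.76%) and 361 lower (3.89%). Protein-coding genes, of which 17572 were tested, had 2091 called higher and 3575 lower (median -0.07). The ribosomal protein pseudogenes thus had a larger share of higher calls and a smaller share of lower calls than either. These shares were not tested against each other, and the excess of higher calls over protein-coding genes was small (12.6% against 11.9%). Against other pseudogenes in the same range of level, it was mostly small as well. The shares called higher were 5.21% against 4.72% below background and 19.2% against 17.9% from 8 to 10. At 12 and above they were 27.6% against 27.9%, but from 10 to 12 they were 37.1% against 19.9%. In each range the share called lower was smaller among the members. Just outside the naming rule lie the pseudogenes of RPSA, RPLP0, RPLP1 and RPLP2, other ribosomal protein genes, in whose names no number directly follows RPL or RPS. Of their 78 copies, 4 were called higher and 7 lower, with a median of -0.15. The 68 copies of RPSA, the laminin receptor protein of the small subunit, made up all 7 lower calls (median -0.18), and the row of RPSA itself was not used.

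Other multicopy families stood beside parents of like or unlike difference. The 39 copies of EEF1A1, a translation elongation factor gene, had 19 called higher and 0 lower by limma (median 0.56), and EEF1A1 rose by 0.30 (SE 0.085). Of 35 copies of HMGN2, a nucleosome-binding protein gene, 30 were called lower (median -1.22), and HMGN2 fell by 1.70 (SE 0.11). Of 69 copies of HNRNPA1, a splicing factor gene, 24 were called lower and 1 higher (median -0.55), and HNRNPA1 fell by 0.81 (SE 0.10). GAPDH did not pass (-0.11, SE 0.080), and of its 60 copies 1 was called higher and 0 lower. The copies of KRT18 (median 0.02) and HMGB1 (median -0.02) lay nearer 0 than their parents (-0.46, SE 0.22, and -0.23, SE 0.16), as did those of KRT8 (0.06, parent 0.31, SE 0.30), and none of these 3 parents passed. The medians of the EEF1A1, HMGN2 and HNRNPA1 copies kept their sign under both other scalings, while those of the KRT18 and KRT8 copies turned below 0.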

How the data were processed

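Total RNA was measured on 6 whole-transcript arrays after biotin labelling, per the labels' protocols. The authors deposited linear intensity values, 1 for each row on each array. The submitters' processing notes name Affymetrix Expression Console. Its version, the normalization and the genome build are not given, so no coordinates are printed. Groups and replicate numbers follow the sample titles. Of 135750 rows, 37295 had a gene name in the platform table, 36176 with 1 symbol and 1119 with several, which were not used. For a gene with several rows, the brightest stood for it.

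Log2 of the deposited intensity went without further scaling or filter into a limma 3.58.1 model (R 4.3.3; lmFit, then eBayes with trend). Tests were two-sided, p-values were adjusted by Benjamini-Hochberg over 33544 genes, and 4 residual degrees of freedom were left. The model was tested on simulated data. The number of arrays limits the precision. Alternatives were other scalings, filters, row rules and variance models, a replicate block, and each array left out. RefSeq (GRCh38.p14) gave biotypes and surrounding genes; a split by strand was not made, and no sequences are shown.

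Members and lists were chosen with earlier results of these data known. Named members were the 12 largest rises and up to 12 falls among calls without overlap, the 6 brightest, and the highest and lowest of each family of at least 8; other genes named were their parents, their surrounding genes and the 4 highest and 4 lowest parents. Members cited beyond these, such as further called copies and RPS19BP1, were picked after their values were seen.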

Additional observations from a re-analysis of the deposited data

How the results depend on the processing

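The excess of higher over lower calls among the pseudogenes was present in all 18 alternatives, but its size was not stable. Members called higher numbered 110, with 41 without variance moderation and 64 to 138 with 1 array left out. Members called lower numbered 11, with 0 without moderation, 3 when all rows were tested, 17 with array weights, 21 after quantile normalization, 23 with equal array medians and 5 to 14 with 1 array left out. Their median of 0.18 became 0.043 after quantile normalization, 0.045 with equal medians, 0.27 and 0.28 with filters at the median and at the olfactory receptor level, and 0.15 to 0.24 with 1 array left out. Of 15 ribosomal protein genes called higher, 7 were left with equal medians, 9 without an intensity trend and 9 to 17 with 1 array left out; of 3 called lower, 0 were left without moderation. Their median of 0.22 became 0.086 with equal medians and 0.12 to 0.25 with 1 array left out. Over all 33544 genes, calls without moderation were 1690 higher and 2568 lower; over all 135750 rows, 8421 were called higher. Of 38 named calls, 25 held when all rows were tested, 11 without moderation, 26 to 33 with 1 array left out, and 7 in all 18 alternatives (RPL7P47, RPL21P44, RPL23AP47, RPL31P46, RPL31P61, RPL36AP33 and RPS15AP36). RPS20P20 held in the 16 where it was tested, since filters at the median and at the olfactory receptor level removed it. The cause was not tested.

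Signs turned only in named members that had not passed. RPL13AP5 came to -0.049 with array weights, -0.12 with equal medians and -0.023 after quantile normalization, and RPS10P17 to -0.023 with equal medians. With 1 array left out, values ranged from -0.063 to 0.069 for RPL13AP5, from -0.025 to 0.18 for RPS10P17, from -0.16 to 0.20 for RPL19P20, from -0.36 to 0.089 for RPL9P30, from -0.013 to 0.41 for RPS10P2, from -0.27 to 0.027 for RPS15AP40, from -0.28 to 0.099 for RPS23P4 and from -0.28 to 0.037 for RPS7P2.

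The replicate numbers were not found to pair the arrays: deviations of same-numbered arrays correlated at 0.093, 0.090 and -0.034. With a replicate block, 123 members were called higher and 11 lower.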
